A study of Rattus norvegicus with 8 samples.

Results

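The nuclear genes that encode the respiratory chain and the ATP synthase were followed in single cells of the rat spinal cord after contusion injury. Members were all genes of the deposited gene list whose symbol starts with Nduf, Uqcr, Atp5 or Cox4 to Cox8, together with Sdha, Sdhb, Sdhc and Sdhd. The rule found 98 gene models among 32623 genes. They carry 94 symbols, because Cox6b1, Ndufa10l1, Ndufv3 and Uqcrb each stand on 2 gene models. By role, 38 members belong to complex I, 4 to complex II, 9 to complex III, 20 to complex IV and 16 to the ATP synthase. The others are 8 assembly factors of complex I, Ndufa4 with its paralog Ndufa4l2, and the inhibitor of the ATP synthase Atp5if1. In the kept cells 95 members had at least 1 UMI (unique molecular identifier, a count of 1 captured transcript), while Ndufa1, Cox7a1 and Cox8c had none. Atp5pb had 62 UMIs and Ndufs6 had 173. Such counts need not mean that a gene is silent, since reads can be lost in the counting, which was not tested. The 13 subunits encoded by the mitochondrial genome, whose symbols start with Mt-, served as a reference.

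The cells came from 8 libraries, 2 for each of 4 groups of 8-week-old female Wistar rats. In the mild, moderate and severe groups a 10 g weight fell on the exposed cord at T9 from 12.5 mm, 25 mm and 50 mm. The sham group had the laminectomy alone, which all groups share. A 10 mm piece of cord was taken at 7 days, and the labels do not say how many rats a library holds. The study speaks of as many sequenced cords as there are libraries, so each library appears to be 1 cord, and p-values measure the spread between such libraries.

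After filtering, 2333 to 10010 cells per library remained with a total of 23533083 to 99615865 UMIs. Of these cells 73.5% to 96.2% were assigned to a cell type by the number and share of its marker genes that were detected. The first sham library stood apart. It had the lowest median depth, 2741 UMIs per cell against 6166 to 10839.5 in the other libraries, and 4475 of its cells were gated as neutrophils against 1 in the second sham library. Its macrophage/microglia gate held 3322 CPM (UMIs scaled to a total of 1000000 over the gated cells) summed over the neutrophil markers, against 89 to 187 CPM in the other 7 libraries. Its gate of oligodendrocyte precursors held 21 cells and 10129 CPM of fibroblast markers, against at most 1286 CPM elsewhere. The part of these cells in the differences from sham was not tested. Few cells met the gates of neurons (0 to 3 per library) and astrocytes (1 to 17). The gated cells were mainly immune cells, with 467 to 7073 macrophages/microglia per library, and cells of the oligodendrocyte lineage. Fibroblasts (1598 in all libraries), erythrocytes (1047) and endothelial cells (351) were fewer. In all, 555 of 68095 barcodes occurred in more than 1 library, 5 to 40 for each pair of libraries.

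Oxidative phosphorylation moves electrons from NADH (complex I) and succinate (complex II) through complex III and cytochrome c to oxygen at complex IV, and the proton gradient built on the way drives the ATP synthase. Most subunits are encoded in the nucleus and are assembled with the few catalytic subunits that the mitochondrial genome encodes. Some subunits of complex IV exist as isoforms that differ between tissues. The nuclear genes are known for promoters with sites for NRF1, for ETS family factors such as GABP, and for YY1.

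Promoter sequences show what these genes share beyond their names. The RefSeq promoters of build GRCr8 (250 bases before to 50 bases after the start of each gene) held 81 of the 94 member symbols. The core GCATGCGC of the NRF1 site, searched on both strands like all motifs here, stood in 11 member promoters (13.6%), against 2.66% of all 27457 promoters. The full NRF1 site, which is this core with GC before it, stood in 6 (7.41%, against 0.932% of all). The ETS site ACTTCCGG stood in 8 (9.88%, against 4.01%), and the YY1 site AAGATGGC in 17 (21.0%, against 3.44%). Of these 17, only Atp5me and Atp5pf held it in the 250 bases before the start, so that most YY1 matches lay after the start. A match describes letters, not a bound site. Stretches of 40 bases from before the start are given for members that the results below turn on and for one YY1 example, with the motif in capitals.
Atp5f1a, ETS: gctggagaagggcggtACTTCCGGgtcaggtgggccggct
Cox8a, ETS: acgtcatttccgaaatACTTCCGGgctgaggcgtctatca
Uqcrh, ETS: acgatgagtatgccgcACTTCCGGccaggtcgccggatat
Ndufa11, NRF1: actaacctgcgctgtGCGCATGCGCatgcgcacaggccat
Sdhb, NRF1 core: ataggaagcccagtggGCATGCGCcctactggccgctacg
Uqcrc1, NRF1 core on the other strand: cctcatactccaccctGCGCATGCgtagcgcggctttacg
Atp5pf, YY1: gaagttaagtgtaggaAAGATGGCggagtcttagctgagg

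The members took most of the transcriptome in oligodendrocyte precursors and least in neutrophils and erythrocytes. Their summed share of UMIs was 3.75% ± 0.54 (SD, n = 8 libraries) in oligodendrocyte precursors, 3.02% ± 0.21 (n = 8) in macrophages/microglia and 2.96% ± 0.23 (n = 8) in oligodendrocytes. Fibroblasts (2.78% ± 0.29, n = 7) and endothelial cells (2.70% ± 0.08, n = 4) followed, then dendritic cells (2.46% ± 0.12, n = 4) and T cells/NK cells (2.04% ± 0.26, n = 7). Neutrophils were at 1.55% ± 0.49 (n = 7) and erythrocytes at 0.192% ± 0.051 (n = 3). Pericytes, with enough cells in the 2 sham libraries only, had 2.93% and 3.94%, and B cells had 1.35% and 1.98% in 2 libraries. Neighbours in this order overlapped between libraries, with 3 exceptions. Dendritic cells (2.30% to 2.58%) lay wholly under endothelial cells (2.64% to 2.82%), T cells/NK cells (1.58% to 2.29%) wholly under dendritic cells, and erythrocytes under all other types. A share depends on what else a cell makes. T cells/NK cells gave 32.2% of their UMIs to ribosomal protein genes and oligodendrocytes 6.46%. Without ribosomal genes in the total the members' share was 3.01% in T cells/NK cells, 3.54% in macrophages/microglia and 4.44% in oligodendrocyte precursors. In that total the mean of T cells/NK cells no longer lay under that of dendritic cells.

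**Figure D1:**
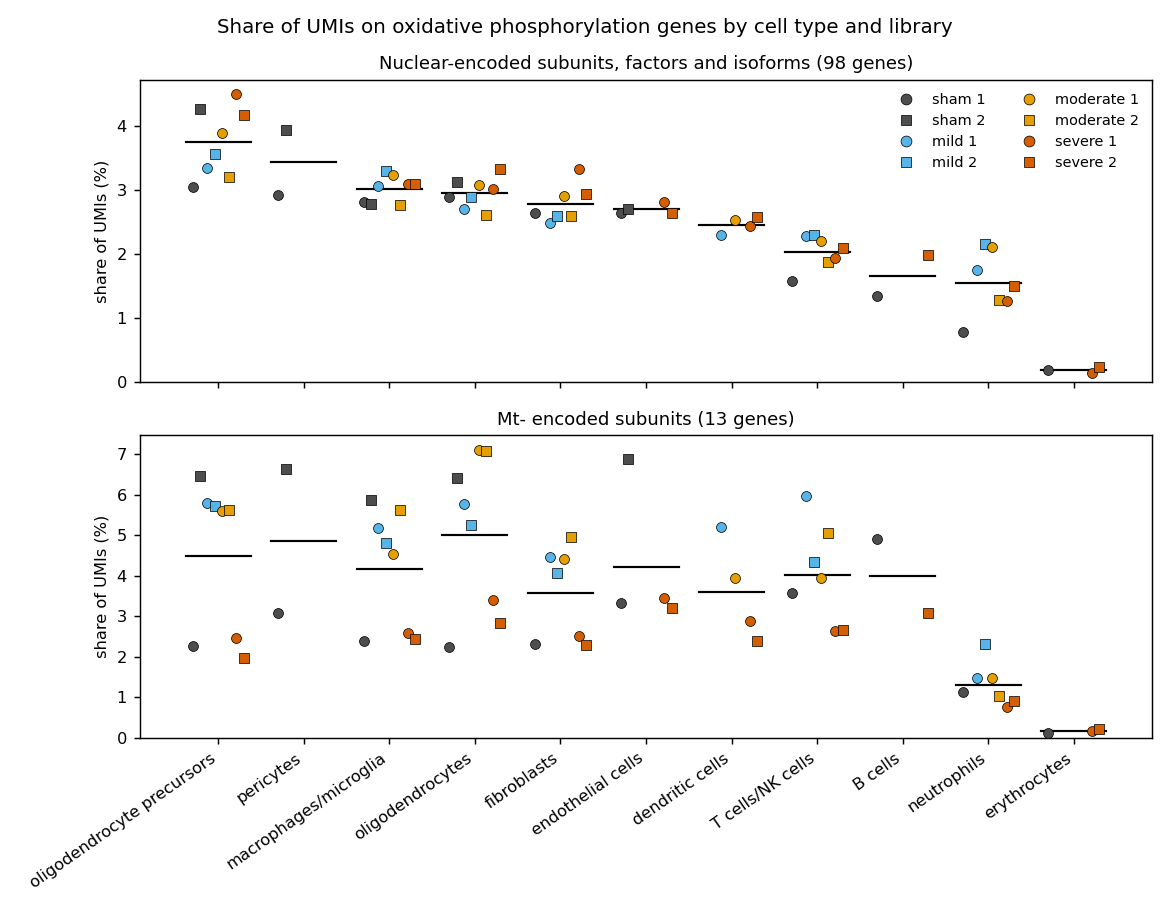
Share of UMIs (%) of the nuclear-encoded members (one panel) and of the 13 Mt- subunits (the other panel) in each cell type, 1 point per library with the group as colour and the replicate as marker shape, and a horizontal bar at the mean. In macrophages/microglia the members' points lie from 2.76% to 3.30%, while the Mt- points of the same cells spread from 2.39% to 5.88%. In neutrophils the members' points spread from 0.787% to 2.15%.

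The Mt- subunits did not follow the nuclear members between libraries. In macrophages/microglia the nuclear share was 2.81% and 2.79% in the sham libraries, 3.06% and 3.30% in mild, 3.23% and 2.76% in moderate and 3.10% and 3.10% in severe injury. The Mt- share of the same cells was 2.39% and 5.88% in sham, 5.17% and 4.81% in mild, 4.54% and 5.63% in moderate and 2.58% and 2.43% in severe injury. The first sham library and both severe libraries were low for Mt- transcripts, and their nuclear shares lay inside the range of the others. The same 3 libraries had the lowest Mt- shares in oligodendrocytes (2.24%, 3.40% and 2.85%, against 5.27% to 7.12% elsewhere) and in oligodendrocyte precursors (2.27%, 2.46% and 1.98%, against 5.60% to 6.47%). Since cells with more than 10% Mt- transcripts had been removed, these levels also depend on that limit.

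Each cell type was compared with macrophages/microglia of the same library by edgeR's quasi-likelihood test on summed UMIs, with TMM scaling, the library as a block and adjustment over all genes tested. Values are log2 fold changes ± SE. The lymphoid and granulocyte types stood lowest. In T cells/NK cells 74 of 86 members tested were lower and 3 were higher (89.5% called, beside 57.7% of all genes tested), and the members' median was -0.90 beside -0.11 over all genes. In neutrophils 67 of 88 were lower and 2 higher (78.4%, beside 62.2% of all genes), with medians of -0.96 and -0.15. In dendritic cells 68 of 88 were lower and none higher (77.3%, beside 36%), with medians of -0.82 and -0.23. The direction of these medians was the same with DESeq2 and with library totals in place of TMM. With library totals the splits were 64 lower and 3 higher in T cells/NK cells, 73 and 1 in neutrophils, and 44 and 1 in dendritic cells.

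All complexes took part in the lower levels of T cells/NK cells. Lower were 33 of 34 members of complex I, 4 of 4 of complex II, 7 of 9 of complex III, 11 of 14 of complex IV and 12 of 15 of the ATP synthase (57.7% of all genes were called in either direction). Sdhb, the iron-sulfur subunit of complex II, ranged from 47.5 to 143 CPM (median 89.9, 7 libraries) in T cells/NK cells and from 232 to 460 CPM (median 338, 8 libraries) in macrophages/microglia. The ranges did not overlap, and the difference was -2.15 ± 0.18 (edgeR, adjusted p = 4.18e-10). Atp5if1, the inhibitor that blocks reverse action of the ATP synthase, lay between 206 and 373 CPM (median 331) against 625 to 959 CPM (median 803), again without overlap (-1.59 ± 0.16, edgeR adjusted p = 8.55e-09). Ndufc1 (-1.53 ± 0.20) and Ndufa11 (-1.50 ± 0.16), both accessory subunits of complex I, were lower in all 7 libraries. Among the 3 higher members were Cox7a2l, known for its part in the assembly of respiratory supercomplexes, and Uqcrh, the hinge subunit of complex III. Cox7a2l was at 294 to 785 CPM (median 602) in T cells/NK cells and at 156 to 398 CPM (median 286) in macrophages/microglia, and it was higher in 7 of 7 libraries (+0.86 ± 0.18, edgeR adjusted p = 0.000295). Uqcrh was at 761 to 972 CPM against 477 to 711 CPM, which do not overlap (+0.47 ± 0.17, edgeR adjusted p = 0.018). Of the 13 Mt- subunits, 1 was higher and 1 lower in T cells/NK cells, with a median of -0.01.

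In neutrophils, 27 of 35 members of complex I, 9 of 9 of complex III, 9 of 15 of complex IV and 13 of 15 of the ATP synthase were lower. Of all genes tested 62.2% were called in either direction, and the count for complex IV was near that share. Atp5mc1, one of the genes for the c ring of the ATP synthase, ranged from 57.3 to 245 CPM (median 107) in neutrophils and from 501 to 730 CPM (median 570) in macrophages/microglia, with no overlap (-2.19 ± 0.20, edgeR adjusted p = 2.32e-07). Cox7c, a small subunit of complex IV, ranged from 67.7 to 275 CPM against 450 to 1036 CPM (-2.05 ± 0.28). Ndufab1, the mitochondrial acyl carrier protein (-1.97 ± 0.26), and Ndufa12 (-1.85 ± 0.24) of complex I were also lower in 7 of 7 libraries. Ndufa7, an accessory subunit of complex I, went the other way and was higher in 7 of 7 libraries (120 to 364 CPM, median 308, against 147 to 199 CPM, median 187), with +0.77 ± 0.16 (edgeR adjusted p = 0.000664). The raw levels of Ndufa7 overlap through the first sham library, whose neutrophils were lowest for the members as a whole (0.787% of UMIs, against 1.26% to 2.15% in the other 6). In contrast to T cells/NK cells, 12 of 13 Mt- subunits were lower in neutrophils, with a median of -1.44; the difference between these 2 comparisons was not tested.

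In dendritic cells, lower members included 30 of 35 of complex I, 8 of 9 of complex III and 11 of 15 of the ATP synthase (36% of all genes were called in either direction). Ndufa11 was at 98.9 to 161 CPM (median 131, 4 libraries) and at 244 to 402 CPM (median 341, 8 libraries) in macrophages/microglia (-1.66 ± 0.20, edgeR adjusted p = 4.04e-15). The main gene model of Uqcrb, the ubiquinone-binding subunit of complex III, was at 182 to 283 CPM against 409 to 703 CPM (-1.61 ± 0.19). Ndufa8, an accessory subunit of complex I, was at 78.1 to 153 CPM against 191 to 315 CPM (-1.39 ± 0.21). None of these pairs of ranges overlapped. The adjusted p rests on 4 pairs of libraries, and edgeR shares its estimate of the spread over genes.

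Oligodendrocytes, oligodendrocyte precursors, fibroblasts and endothelial cells stood nearer to macrophages/microglia, and their splits depend on the scaling. With TMM, 55 of 90 members tested were lower and 10 higher in oligodendrocytes (72.2%, beside 74.3% of all genes), 61 of 88 lower and 4 higher in oligodendrocyte precursors (73.9%, beside 69.2%), 57 of 89 lower and 3 higher in fibroblasts (67.4%, beside 62.1%) and 34 of 88 lower and 2 higher in endothelial cells (40.9%, beside 42%). With library totals in place of TMM the splits were 22 lower and 26 higher, 6 lower and 56 higher, 19 lower and 12 higher, and 10 lower and 5 higher. The change of scaling moved the median of all genes by the same amount as the members. Against the all-gene median the members' median was -0.25 with TMM and -0.24 with library totals in oligodendrocytes, -0.31 and -0.31 in oligodendrocyte precursors, -0.36 and -0.36 in fibroblasts, and -0.44 and -0.43 in endothelial cells. The shares of members called were near the shares of all genes called in these 4 types.

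**Figure D2:**
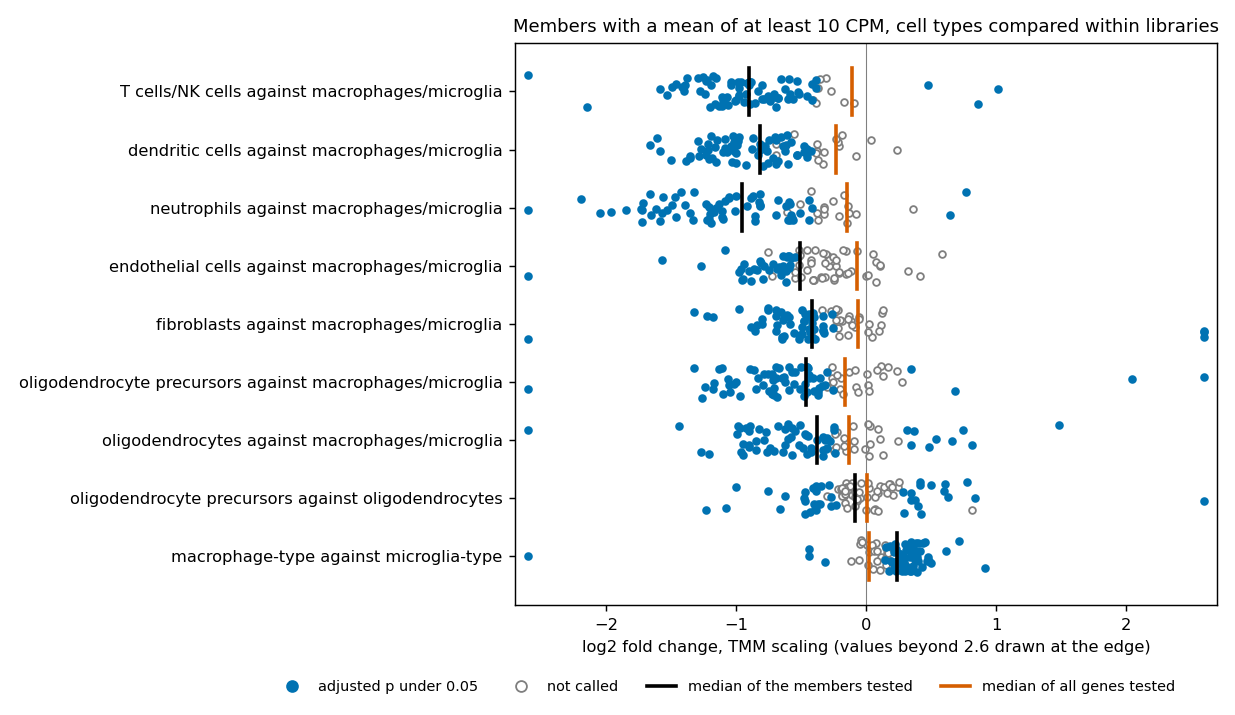
Log2 fold changes (TMM) of the members with a mean of at least 10 CPM in the comparisons between cell types of the same library, 1 point per member, filled where the adjusted p is under 0.05 and open otherwise. Black bars are the members' medians and orange bars the medians of all genes tested, and values beyond the axis are drawn at its edge. In T cells/NK cells, neutrophils and dendritic cells most filled points lie under the orange bar.

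Oligodendrocytes differed from macrophages/microglia in which members were high. Cox7a2l2, which carries the name of a Cox7a2l copy, was at 576 to 1731 CPM (median 1063) in oligodendrocytes and at 297 to 587 CPM (median 479) in macrophages/microglia, higher in 8 of 8 libraries (+0.74 ± 0.12, edgeR adjusted p = 0.00011). Ndufa7 (+0.66 ± 0.10) and Ndufb4 (+0.54 ± 0.13) of complex I were higher in 8 of 8 libraries as well. Lower in 8 of 8 libraries were Atp5if1 (315 to 508 CPM against 625 to 959 CPM, -1.44 ± 0.14), Sdhb (138 to 235 CPM, -1.27 ± 0.13), Atp5mc3, a further gene of the c ring (-1.21 ± 0.11), and Atp5f1e, the epsilon subunit (-0.997 ± 0.111). Uqcrfs1, the iron-sulfur subunit of complex III, was lower in 8 of 8 libraries too (129 to 231 CPM against 171 to 339 CPM, -0.90 ± 0.12). With TMM, none of the 15 ATP synthase members tested was higher in oligodendrocytes, and 13 were lower (beside 74.3% of all genes called). Those also called lower with library totals and with DESeq2 were Atp5f1b, Atp5f1d, Atp5f1e, Atp5mc1, Atp5mc2, Atp5mc3 and Atp5mg.

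Atp5if1 and Sdhb were lower than in macrophages/microglia in several types. Sdhb was lower in fibroblasts (140 to 200 CPM, -1.32 ± 0.11) and endothelial cells (120 to 156 CPM, -1.57 ± 0.23), and Atp5if1 in oligodendrocyte precursors (500 to 725 CPM, -1.32 ± 0.12), fibroblasts (331 to 525 CPM, -1.23 ± 0.12) and endothelial cells (415 to 555 CPM, -0.98 ± 0.22), each in all libraries compared. Sdhd, a membrane anchor of complex II, was lower in endothelial cells (58.8 to 95.7 CPM against 106 to 173 CPM, -1.09 ± 0.19). These comparisons share the macrophage/microglia libraries as their reference.

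The calls that did not depend on the scaling were counted as those with the same direction and an adjusted p under 0.05 with TMM, with library totals and with DESeq2. They were 68 of 69 in neutrophils (1 higher, 67 lower), 67 of 77 in T cells/NK cells (3 higher, 64 lower) and 44 of 68 in dendritic cells (all lower). In oligodendrocytes they were 32 of 65 (10 higher, 22 lower), in fibroblasts 22 of 60 (3 higher, 19 lower), in endothelial cells 12 of 36 (2 higher, 10 lower) and in oligodendrocyte precursors 10 of 65 (4 higher, 6 lower). The lower levels of the 3 immune types thus kept their call for most members called, while those of the precursors did so for few. In the precursors the 6 lower members were Atp5f1e, Atp5if1, Cox6a2, Ndufv3, Sdhb and Uqcr10, and the 4 higher were Cox4i2, Cox6b2, Ndufa4 and Ndufaf2, an assembly factor of complex I. The share of UMIs and the scaled fold changes differ for the precursors, since their summed share was the highest (3.75%) while 61 members were lower with TMM. TMM leaves out the genes with the most extreme ratios when it sets the scale, and a share of UMIs counts all genes.

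Oligodendrocyte precursors were next set against oligodendrocytes of the same 8 libraries. Of 86 members tested, 16 were higher and 24 lower (46.5%, beside 61.8% of all genes), and with library totals 48 were higher and 4 lower. Cox8a, the ubiquitous form of a complex IV subunit, was at 1281 to 2477 CPM (median 1840) in the precursors and at 666 to 1024 CPM (median 778) in oligodendrocytes, with no overlap (+0.77 ± 0.12, edgeR adjusted p = 5.08e-05). Ndufa4, now counted with complex IV, was at 982 to 1799 CPM against 580 to 865 CPM, again apart (+0.50 ± 0.10, edgeR adjusted p = 0.000833). Cox7b (+0.63 ± 0.11) and Atp5f1b, the catalytic beta subunit (+0.60 ± 0.11), were higher in 8 of 8 libraries. Lower in 8 of 8 libraries were Ndufv3 (-1.24 ± 0.10), a flavoprotein subunit of complex I, Cox5a (-1.08 ± 0.17) and Cox7a2l2 (-1.002 ± 0.119). Cox5a was at 408 to 895 CPM (median 584) in the precursors and at 501 to 1476 CPM (median 1022) in oligodendrocytes, so that the ranges overlapped between libraries although each library had the same direction.

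Within the macrophage/microglia gate, cells with macrophage markers were compared with cells with microglia markers of the same library. Of 89 members tested, 54 were higher in macrophage-type cells and 5 lower (66.3%, beside 50.1% of all genes), with a members' median of +0.23 beside +0.02 over all genes. Of the 59 calls, 23 were called in the same direction in all 3 scalings (18 higher, 5 lower). With library totals 18 were higher and 18 lower, while the members' median stood above that of all genes by 0.23, beside 0.22 with TMM and with DESeq2. With TMM the rise covered 12 of 15 ATP synthase members, 21 of 35 of complex I, 7 of 9 of complex III, 2 of 4 of complex II and 9 of 15 of complex IV, and no member of the ATP synthase or of complexes I to III was lower. Of 8 assembly factors of complex I, 1 was higher and 2 lower. Among members with a mean of at least 50 CPM, those that rose most were Ndufb4 (+0.92 ± 0.09), Cox7c (+0.71 ± 0.08), Atp5if1 (+0.61 ± 0.07) and Ndufa7 (+0.48 ± 0.07), each in 8 of 8 libraries. Ndufb4 was at 128 to 374 CPM (median 172) in macrophage-type and at 65.4 to 209 CPM (median 123) in microglia-type cells, which overlap between libraries. Ndufa4 was lower in 8 of 8 libraries (358 to 696 CPM, median 395, against 532 to 865 CPM, median 675), with -0.44 ± 0.09 (edgeR adjusted p = 0.00115).

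Isoforms of complex IV and of Ndufa4 differed between cell types. Pericytes, the mural cells of small vessels, showed the clearest change of isoform. Cox4i2, the form of subunit 4 known from lung and for its link to oxygen sensing, was at 1546 and 1843 CPM in pericytes of the 2 sham libraries. Its mean elsewhere was 42.4 CPM in oligodendrocyte precursors, 32.9 CPM in fibroblasts and 8.67 CPM in endothelial cells. The common form Cox4i1 was present beside it, at 1123 and 1527 CPM. Ndufa4l2, a hypoxia-inducible paralog of Ndufa4, was at 946 and 1939 CPM in pericytes, with a mean of 45.6 CPM in fibroblasts and 9.93 CPM in endothelial cells. Ndufa4 itself was at 39.4 and 41.3 CPM in pericytes, against 953 to 1029 CPM in endothelial cells and 537 to 999 CPM in fibroblasts. Pericytes were thus high for the paralog and low for Ndufa4, and their values did not overlap with those of any other type for Cox4i2, Ndufa4l2 or Ndufa4, with erythrocytes the only type lower for Ndufa4 (7.65 to 37.3 CPM).

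To compare single cells at equal depth, each cell with at least 1000 UMIs was thinned to 1000 UMIs, and cells with fewer were left out. Cox4i2 was then detected in 77.8% of 63 pericytes (Wilson 95% interval 66.1% to 86.3%, counting error only), in 4.08% of oligodendrocyte precursors, 2.21% of fibroblasts, 0.860% of endothelial cells and 0.157% of macrophages/microglia. Without thinning the shares were 95.5% in pericytes and 5.98% in endothelial cells. Ndufa4l2 was detected in 73.0% of thinned pericytes (61.0% to 82.4%), 3.72% of fibroblasts and 1.43% of endothelial cells. Ndufa4 showed the reverse, with 6.35% of pericytes (2.50% to 15.2%) and 58.2% of endothelial cells (52.9% to 63.2%). The median depth was 3162 UMIs in pericytes and 8941 in endothelial cells. These values rest on 67 cells in 5 libraries, with 48 of them in sham, and on no test, since 2 libraries reached 20 cells. The pericyte gate of the first sham library also held 6383 CPM of fibroblast and 3723 CPM of neutrophil markers, and the second 3397 CPM and 193 CPM.

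**Figure D3:**
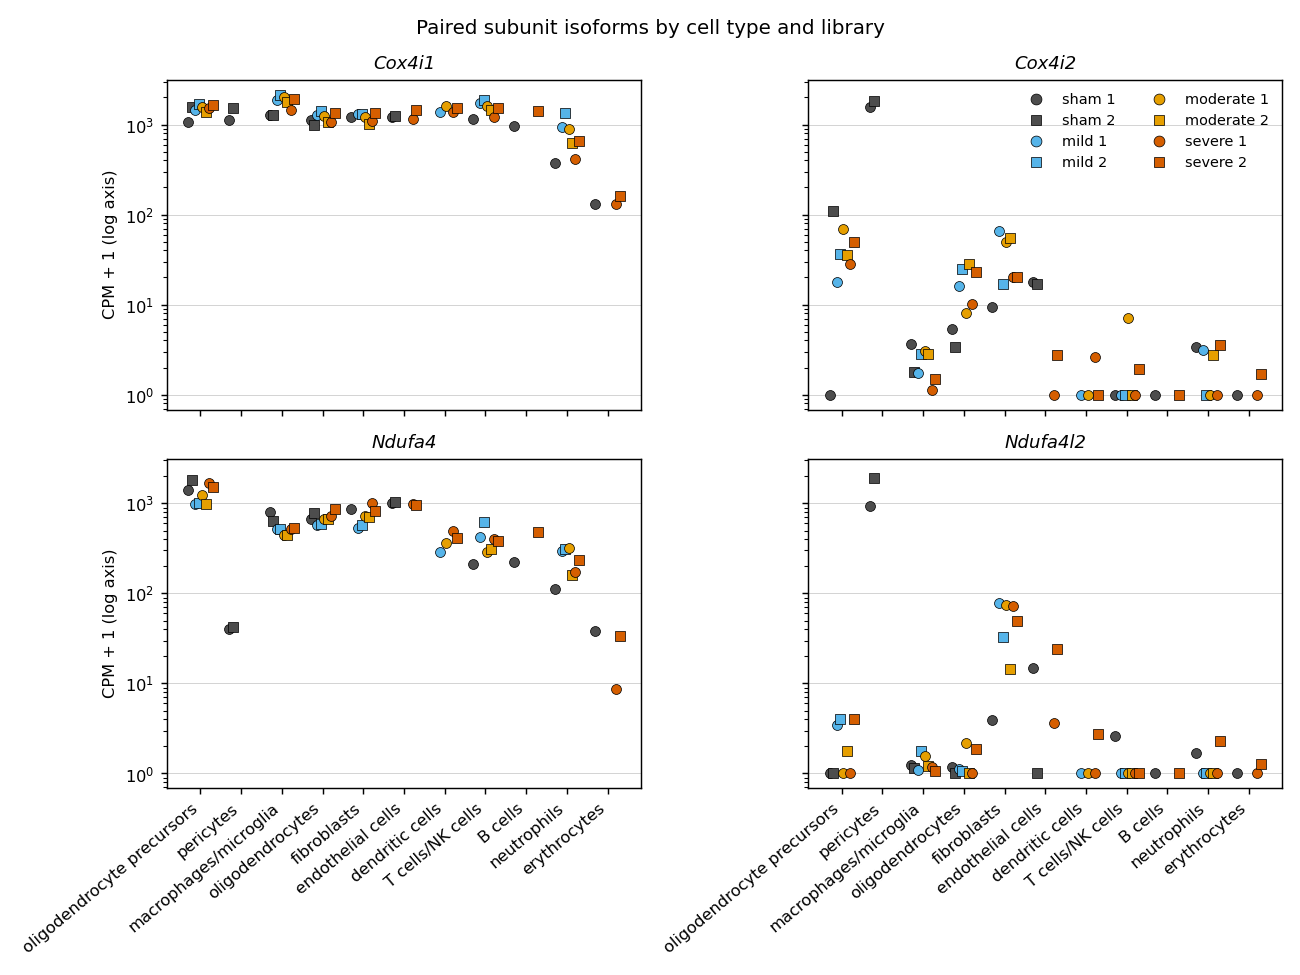
Levels (CPM + 1, log axis) of Cox4i1, Cox4i2, Ndufa4 and Ndufa4l2 by cell type, 1 point per library. Pericytes are high for Cox4i2 (1546 and 1843 CPM) and Ndufa4l2 and low for Ndufa4 (39.4 and 41.3 CPM).

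Cox6a2, the heart and muscle form of subunit 6a, appeared in microglia-type cells. Its level there was 138 and 43.1 CPM in the sham libraries, 16.4 and 32.7 CPM in mild, 26.7 and 14.3 CPM in moderate and 36.9 and 78.7 CPM in severe injury. Macrophage-type cells had 0.330 to 10.1 CPM, under every microglia-type value (-3.95 ± 0.30, edgeR adjusted p = 2.5e-07). At 1000 UMIs it was detected in 3.05% of microglia-type cells (2.70% to 3.44%), in 0.207% of macrophage-type cells and in 0.207% of neutrophils, and the latter serve as background. Of 8296 neutrophils, 5793 had enough UMIs to be thinned, so this background covers the deeper neutrophils only. Cox6b2, known from testis, was at 24.8 to 94.1 CPM in oligodendrocyte precursors and at 26.9 to 97.1 CPM in fibroblasts. It was at most 4.73 CPM in oligodendrocytes, and the difference between the precursors and oligodendrocytes was +4.31 ± 0.33 (edgeR adjusted p = 6.7e-08). The muscle form Cox8b had 11 UMIs in all kept cells, and Cox7a1 had none.

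Erythrocytes, which lose their mitochondria, had low levels of most members. Atp5if1, known for its role in haem synthesis, was at 353 CPM in the first sham library and at 263 and 306 CPM in the severe libraries. Cox4i1 was at 132, 130 and 161 CPM, Uqcrh at 147, 112 and 123 CPM and Cox8a at 62.1, 74.0 and 111 CPM, while Sdha, Ndufs1, Ndufv1 and Uqcrc1 were at 8.12 CPM or less. Haemoglobin and the other erythrocyte markers took 393772 to 482954 CPM of the erythrocytes, so that scaling decides the comparison. With TMM, Atp5if1 was higher than in macrophages/microglia (+2.47 ± 0.79, edgeR adjusted p = 0.0392) and was the only 1 of 86 members called (1.16%, beside 5.25% of all genes), whereas with library totals all 86 were lower, Atp5if1 at -1.26.

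Injury was examined first in macrophages/microglia, the type with the most cells in 7 of the 8 libraries. Of 8 core subunits, 4 were higher in the injured libraries: Uqcrc1, Ndufv1, Atp5f1a and Sdha, by +0.89 to +1.17 on the log2 scale, of which all but Sdha kept their call in all 3 scalings. The other 4 did not pass, with Atp5f1b at +0.85, Uqcrfs1 at +0.76, Sdhb at +0.61 and Ndufs1 at -0.25 (edgeR adjusted p from 0.0552 to 0.468). Of all genes tested 12.6% were called in either direction. The 8 core subunits were chosen with earlier results of these data known, so their share called is no test of core subunits as a class. The make-up of the gate moved with injury. The sham libraries held 200 and 1794 microglia-type beside 86 and 96 macrophage-type cells, and in each of the 6 injured libraries macrophage-type cells (716 to 3716) outnumbered microglia-type cells (142 to 2157). With all 3 injured groups against sham, 11 of 91 members tested were higher and 2 lower (14.3%, beside 12.6% of all genes). The share called was near that of all genes. The members' median was +0.36 beside -0.03 over all genes. After TMM scaling, every injured library lay above both sham libraries for 28 of 91 members (13.1% of all genes did so). The higher members came from complex I (7 of 36), complex III (2 of 9), complex II (1 of 4) and the ATP synthase (1 of 16), and 0 of 15 members of complex IV were higher.
Uqcrc1, a core subunit of complex III, was at 121 and 110 CPM in sham, 301 and 278 CPM in mild, 196 and 190 CPM in moderate and 202 and 188 CPM in severe injury. All 6 injured libraries lay above both sham libraries (+1.17 ± 0.19, edgeR adjusted p = 0.0113). Ndufv1, the subunit of complex I that binds NADH, was at 85.7 and 78.9 CPM in sham, 191 and 191 CPM in mild, 128 and 105 CPM in moderate and 133 and 141 CPM in severe injury. It was again higher in all 6 (+1.05 ± 0.20, edgeR adjusted p = 0.0172). Atp5f1a, the alpha subunit of the ATP synthase, was at 265 and 221 CPM in sham, 503 and 461 CPM in mild, 395 and 399 CPM in moderate and 424 and 337 CPM in severe injury (+1.02 ± 0.20, edgeR adjusted p = 0.0177). Sdha, the flavoprotein of complex II, was at 55.4 and 44.5 CPM in sham, 100.1 and 98.7 CPM in mild, 68.3 and 77.0 CPM in moderate and 72.2 and 61.8 CPM in severe injury (+0.89 ± 0.18, edgeR adjusted p = 0.0193). Sham was lowest for both genes, without overlap, and the mild libraries were highest. Other subunits that rose included Ndufb5, Ndufb8, Ndufs3, Ndufa9, Ndufs7 and the weaker gene model of Uqcrb, from +0.79 to +1.24. Of those listed here, only Ndufs7 and this model of Uqcrb kept their call in all 3 scalings. Cox6a2 (-2.25) and the assembly factor Ndufaf4 (-0.87) fell. Cox6a2 was also the gene higher in microglia-type cells, which made up more of the sham gate. Within the subsets its values were -1.34 in microglia-type cells (edgeR adjusted p = 0.116) and -2.21 in macrophage-type cells (edgeR adjusted p = 0.111), which did not pass. The part of the gate's make-up in this fall was not tested.

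**Figure D4:**
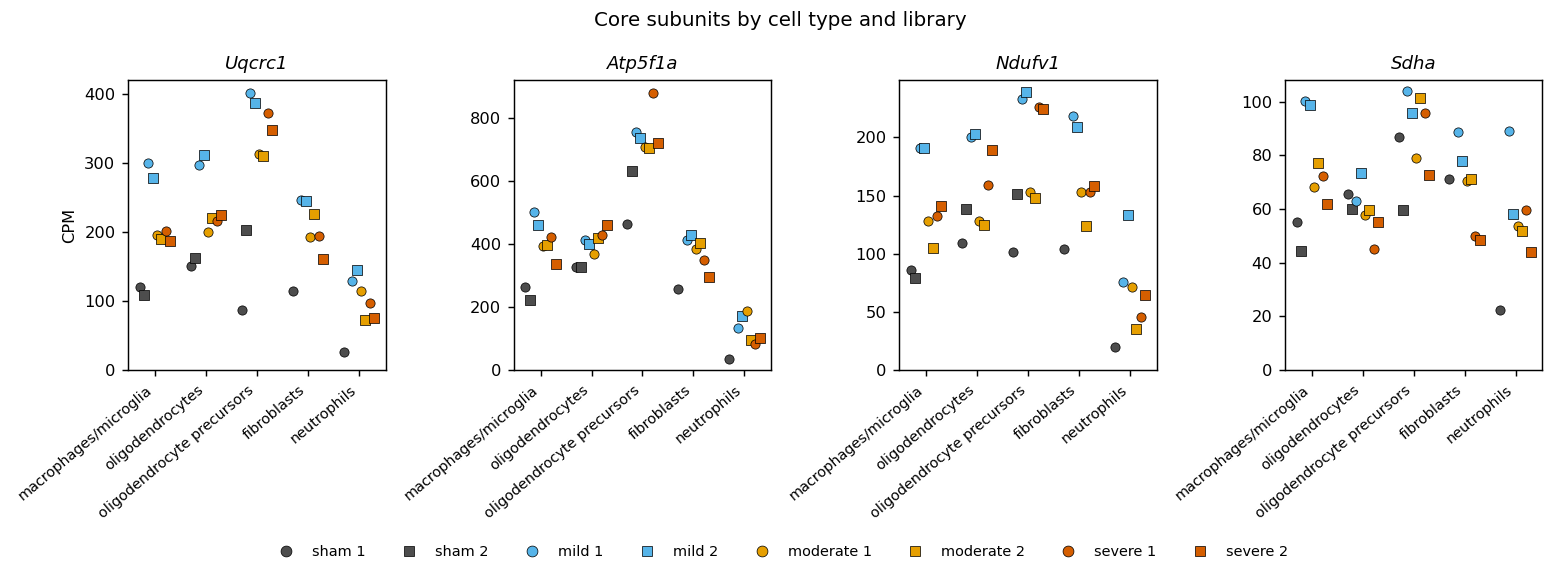
Levels (CPM) of Uqcrc1, Atp5f1a, Ndufv1 and Sdha in macrophages/microglia, oligodendrocytes, oligodendrocyte precursors, fibroblasts and neutrophils, 1 point per library by injury group. In macrophages/microglia both sham points lie under all 6 injured points for each of the 4 genes, and Uqcrc1 and Atp5f1a have this order in all 5 types.

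The single groups were each set against the same 2 sham libraries, and no contrast between injured groups was run. Against sham, 8 members were higher and 1 lower in mild injury (9.89% of 91, beside 8.29% of all genes), 1 was higher and none lower in moderate injury (1.10%, beside 4.18%), and 15 were higher and 2 lower in severe injury (18.7%, beside 10.5%). The 1 in moderate injury was the weaker gene model of Uqcrb (+1.25). In severe injury the members with a mean of at least 50 CPM that rose most were Ndufb4 (+1.51 ± 0.29), Uqcrc1 (+1.27 ± 0.22), Ndufv1 (+1.25 ± 0.24) and Atp5f1a (+1.17 ± 0.23). All of these but Atp5f1a kept their call in all 3 scalings. Ndufb4 was also higher in macrophage-type than in microglia-type cells (+0.92), and macrophage-type cells made up more of the gate in severe injury than in sham. The part of the gate's make-up in its rise was not tested. With library totals in place of TMM, 3 members were higher and 5 lower in severe injury, and 6 and 2 in mild injury. In severe injury library totals moved the median of all genes to -0.59, and the members' median stood 0.74 above the all-gene median with either scaling. After TMM scaling, both severe libraries lay above both sham libraries for 64 of 91 members (26.4% of all genes). This count was not made with library totals.

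These counts rest on few libraries. For all injured groups against sham, 13 members were called, and 10 and 13 without the first or the second sham library. The count was 2 without either mild library, 7 and 4 without the first or the second moderate library, and 7 and 6 without the first or the second severe library. For severe against sham the 17 calls became 10 without the first sham library and 25 without the second, 4 and 3 without the mild, 5 and 5 without the moderate, and 0 and 3 without the first or the second severe library. For mild against sham the 9 calls became 0 without either mild library and 5 without either moderate library, and the 1 call for moderate injury became 4 without the first sham library and 0 without any injured library. Uqcrc1 and the weaker gene model of Uqcrb, with all injured groups against sham, were the 2 members called in all 19 fits, that is the reported fit and every alternative scaling, filter, block and left-out library. The weaker model of Uqcrb had 12831 UMIs in the kept cells. Its main model had 224758 UMIs and was not called in the reported fit.

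The subsets of the gate gave fewer calls. In macrophage-type cells 8 of 90 members were higher in injury and none lower (8.89%, beside 4.6% of all genes), led by Ndufs3 (+1.26 ± 0.23), Ndufb5 (+1.04 ± 0.21), Uqcrc1 (+1.02 ± 0.21) and Atp5f1a (+1.01 ± 0.21). Of these 8 calls, only Ndufs3 and a gene model of Uqcrb kept theirs in all 3 scalings. In microglia-type cells Uqcrc1 alone of 88 was called (1.14%, beside 1.83%), at 117 and 109 CPM in sham and at 196 to 323 CPM in the 6 injured libraries (+1.15 ± 0.21, edgeR adjusted p = 0.0392). The sham macrophage-type cells numbered 86 and 96. Without the first sham library none of the 8 calls in macrophage-type cells was left, without the second 5 were, and without any single injured library 2 to 4 were. In microglia-type cells the 1 call became 4 and 8 without the first or the second sham library and 0 without any injured library.

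In the oligodendrocyte lineage and the vessels few members passed. Oligodendrocytes had 1 member higher and 2 lower in mild (3.49%, beside 5.16% of all genes), 2 lower in moderate (2.33%, beside 3.65%), 1 lower in severe injury (1.16%, beside 0.956%) and none with all injured groups together (beside 3.75%; 13 at an unadjusted p under 0.05 by edgeR, and 1 by DESeq2 after adjustment). Uqcrc1 was higher in mild injury, at 297 and 311 CPM against 151 and 163 CPM in sham (+0.96 ± 0.23, edgeR adjusted p = 0.0384). The lower members in mild injury were Ndufs5 (-1.39 ± 0.26) and Ndufc1 (-1.32 ± 0.33). In moderate injury they were Ndufb4 (-1.21 ± 0.27) and Ndufs5 (-1.13 ± 0.26), neither of which kept its call in all 3 scalings. In severe injury it was the weaker gene model of Cox6b1 (-2.41 ± 0.42). Oligodendrocyte precursors had 1 higher and 1 lower in mild (2.33%, beside 3.43%), none in moderate (beside 5.81%; 12 at an unadjusted p under 0.05 by edgeR, and 1 by DESeq2 after adjustment), 4 higher in severe injury (4.65%, beside 8.24%) and 1 higher with all injured groups together (1.16%, beside 6.68%). Uqcrc1 in precursors was at 86.9 and 204 CPM in sham and at 311 to 402 CPM in the 6 injured libraries (+1.26 ± 0.31, edgeR adjusted p = 0.0243), so sham was lower without overlap, although the first sham library held 21 precursors. The lower member of the precursors in mild injury was Ndufs5 (-1.58 ± 0.32, edgeR adjusted p = 0.0244). Endothelial cells, with the severe group only, had none of 85 called (beside 0.71%; 8 at an unadjusted p under 0.05 by edgeR).

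Uqcrc1 and Atp5f1a were the members with 1 direction in each of the 7 types counted here. In each of 7 types (macrophages/microglia, neutrophils, T cells/NK cells, oligodendrocytes, oligodendrocyte precursors, fibroblasts and endothelial cells) every injured library lay above every sham library for both genes. Among members with at least 10 CPM these were 2 of 84 (2.38%), beside 0.204% of 6365 genes. Erythrocytes, seen in the first sham and the severe libraries, were left out of this count. Their Uqcrc1 was at 2.48 CPM in sham and at 0 and 8.12 CPM in severe injury, without this order. Their Atp5f1a had it, at 2.48 CPM against 7.65 and 16.8 CPM. For both genes the erythrocyte values of the first sham and the first severe library rest on at most a few UMIs, near the counting floor. Endothelial cells had 2 injured libraries, both of the severe group. Neutrophils, T cells/NK cells and fibroblasts had the first sham library as their only sham library. There Uqcrc1 was at 27.0, 38.0 and 114 CPM, against 73.2 to 146, 111 to 158 and 162 to 247 CPM in injury. Atp5f1a was at 34.6, 98.2 and 256 CPM, against 84.2 to 187, 159 to 244 and 295 to 430 CPM. The neutrophils of the first sham library were also the lowest for the members as a whole (0.787% of UMIs). In oligodendrocytes Atp5f1a was at 328 and 328 CPM in sham and at 370 to 461 CPM in injury, the narrowest gap. Atp5f1c, Ndufb5 and Ndufs3 had this order in 6 of the 7 types. No member had the opposite order in all 7 (beside 0.0471% of genes). All types of a library were handled together, so a response of many cell types and a difference between libraries cannot be told apart.

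Several other members varied between libraries in the same way in several types. Ndufs5, a complex I subunit, was at 186 and 202 CPM in sham, 97.2 and 88.4 CPM in mild, 138 and 119 CPM in moderate and 286 and 280 CPM in severe injury in macrophages/microglia. In oligodendrocyte precursors it was at 275 and 443, 125 and 121, 236 and 173, and 616 and 526 CPM. Mild was lowest and severe highest in both types, with no overlap of either group with sham, but in neutrophils the first sham library was lowest (35.8 CPM). Ndufb4 was at 142 and 137 CPM in sham, 115 and 148 CPM in mild, 103 and 112 CPM in moderate and 344 and 216 CPM in severe injury in macrophages/microglia, high in the severe libraries only. Cox7c set the 2 severe libraries apart from each other, at 1036 and 539 CPM in macrophages/microglia and 1213 and 625 CPM in oligodendrocytes. Cox6a1, at 753 and 355, 978 and 1092, 1140 and 1002, and 400 and 520 CPM, and Atp5f1b, at 618 and 297, 825 and 846, 792 and 912, and 381 and 485 CPM, were low in the second sham and both severe libraries. The weaker gene model of Cox6b1 was at 10.6 and 11.4 CPM in severe injury and at 54.8 to 88.4 CPM elsewhere. Reads of a gene and its near-identical copy may be split between models, so values of such second models are uncertain. The cause of these patterns was not tested.

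**Figure D5:**
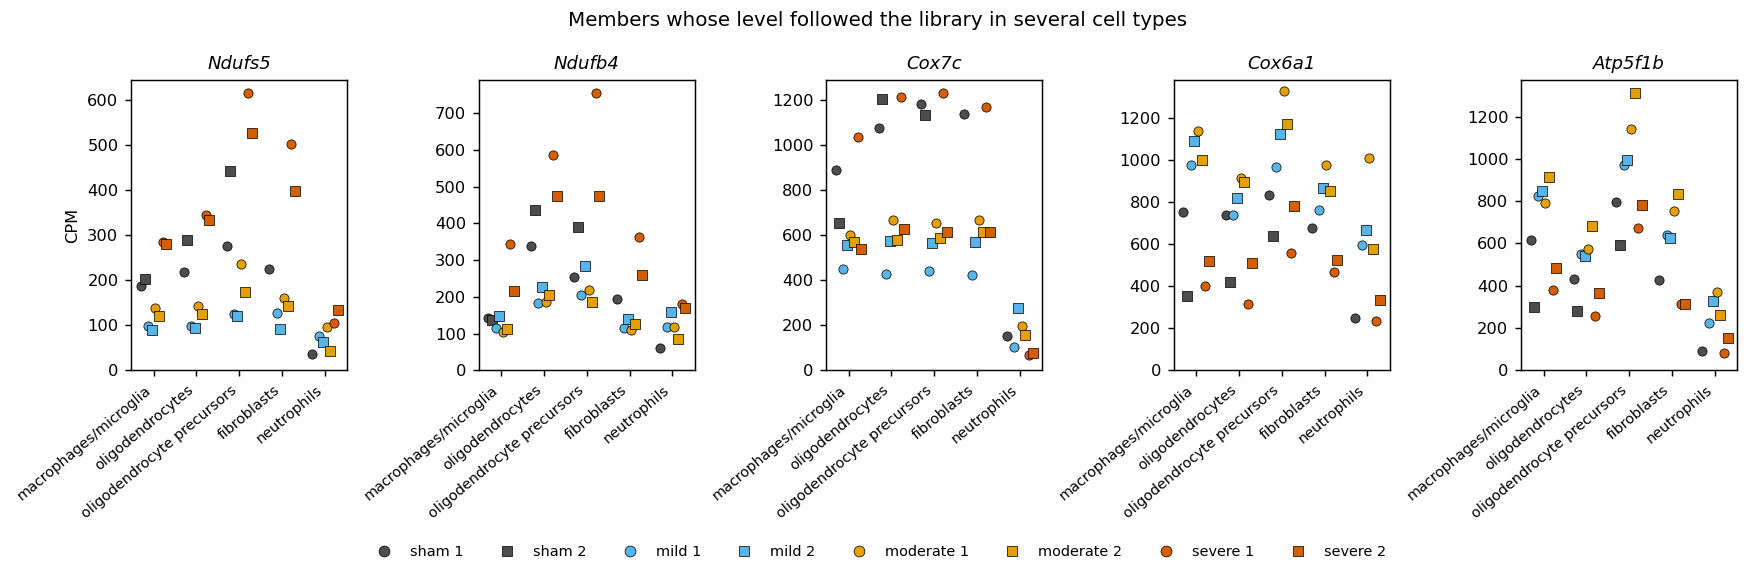
Levels (CPM) of Ndufs5, Ndufb4, Cox7c, Cox6a1 and Atp5f1b in macrophages/microglia, oligodendrocytes, oligodendrocyte precursors, fibroblasts and neutrophils, 1 point per library by injury group. Ndufs5 is lowest in the mild and highest in the severe libraries in all but neutrophils, and Cox7c is higher in the first than in the second severe library in all but neutrophils (67.7 and 76.4 CPM).

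Other genes of the pathway were counted by list. In macrophages/microglia, with all injured groups against sham (12.6% of all genes called), 5 of 11 tricarboxylic acid cycle genes were higher and none lower (45.5%, median +0.45). Of 8 hypoxia response genes 1 was higher, and of 27 further assembly factors 1 was lower. Cyc1, the cytochrome c1 subunit of complex III, was higher (+0.87 ± 0.23, edgeR adjusted p = 0.0417), and Cycs, cytochrome c itself, did not pass (-0.33). Cycs had 0 UMIs in the pericytes and B cells with enough cells, where Cyc1 had means of 208 and 139 CPM. Its reads may be lost in the counting, which was not tested, so its value is uncertain. Among 9 regulators of mitochondrial genes, such as Ppargc1a and Tfam, and 7 carriers and channels no gene passed, and 1 of 13 Mt- subunits was lower (median -0.13). In neutrophils against macrophages/microglia (62.2% of all genes called), 10 of 11 tricarboxylic acid cycle genes were lower (90.9%, median -1.33). Of 26 assembly factors 18 were lower and 1 higher (73.1%, median -1.02), nearer to the share of all genes, and of 8 hypoxia response genes 5 were higher and 1 lower (75.0%, median +0.70). In T cells/NK cells (57.7% of all genes called) 7 of 7 carriers and channels and 6 of 8 hypoxia response genes were lower. In oligodendrocyte precursors against oligodendrocytes (61.8% of all genes called) 10 of 13 Mt- subunits were lower and 1 higher (84.6%, median -0.55).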

How the data were processed

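Cells of the injured and sham cords were loaded on 10x Genomics chips, and the authors deposited 1 matrix of raw UMI counts per library (Cell Ranger 5.0.1 per the file headers, build Rnor_6.0 and Seurat per the submitters' processing notes). No normalised values were used here. Members, gene lists and comparisons were chosen with earlier results of these data known. Cells with over 10% Mt- counts were removed, then the 7.7% with the highest Scrublet doublet scores, then those with UMIs or genes more than 2 SD from the mean of their library (Python 3.11.15, scanpy 1.11.5). A cell was assigned to a type when at least 3 of its markers were detected and the share of markers detected led every other type by 0.2. Of 108 markers 102 were in the files. Macrophage-type and microglia-type cells needed at least 2 markers of their subset. Counts were summed per library and type (at least 20 cells) and tested with edgeR 4.0.16 in R 4.3.3 (filterByExpr, TMM, quasi-likelihood, Benjamini-Hochberg at 0.05), with all groups of a type in 1 fit for injury and the library as a block between types.

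Genes were named if they were isoform pairs, core subunits of each complex, or among the 4 largest rises or falls of a comparison with an adjusted p under 0.05, no overlap (for pairs, 1 direction in every library) and, averaged over the samples compared, 50 CPM or more after TMM scaling. A few genes were described beyond the comparisons in which they met this rule, such as Ndufs5 and Cox7c by library and the second gene models, after their values were seen. The tests were tried on simulated counts with 200 genes changed 4-fold. For injury in macrophages/microglia 82.5% were recovered with 4 false calls among 13540 genes, and for oligodendrocytes against macrophages/microglia 99.5% with 6 among 13481. Most changes with injury described above were smaller than 4-fold, so these rates do not give the recovery for changes of their size. Alternatives were DESeq2 1.42.0, library totals, no filter on low counts, other gates and limits, a replicate block, no library block and each library left out. Tests on microglia-type and macrophage-type cells for injury were added after the data were seen. Replicate numbers shared by the groups were checked for pairing by the correlation of deviations from the group means. Reads of genes with near-identical copies may be split or lost in the counting. Intervals cover counting error only. A gene that met the naming rule is not reported here, and not each named gene is given for every comparison.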

Additional observations from a re-analysis of the deposited data

Results flagged for a closer look

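Sdha, the flavoprotein of complex II, had severe libraries on opposite sides of sham in a pair of cell types, although only 1 of the values passed the test. In macrophages/microglia it was at 55.4 and 44.5 CPM in sham and at 72.2 and 61.8 CPM in severe injury, a log2 fold change of +0.95 (edgeR adjusted p = 0.0291), which with library totals was +0.43 and did not pass (adjusted p = 0.201). Over all alternatives the adjusted p ranged from 0.00154 to 0.201. In oligodendrocytes it was at 65.5 and 59.9 CPM in sham and at 45.0 and 55.1 CPM in severe injury, a log2 fold change of -0.12, smaller than its SE of 0.24, which did not pass (edgeR adjusted p = 0.808). Both severe libraries lay above both sham libraries in the first type and under them in the second. The difference between the types was not tested, and it was singled out after the values of many members had been compared.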

How the results depend on the processing

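With DESeq2 the counts were 24, 9, 35 and 27 for mild, moderate, severe and all injury in macrophages/microglia, 7 in microglia-type and 17 in macrophage-type cells, 8, 6 and 1 for mild, moderate and all injury in oligodendrocytes, 1 and 9 for moderate and severe injury in precursors, and 5 for erythrocytes against macrophages/microglia. With library totals they were 8 for severe and 8 for all injury in macrophages/microglia, 2 in macrophage-type cells, 0 for moderate injury in oligodendrocytes and 2 for severe injury in precursors, and between types 45 in dendritic cells, 31 in fibroblasts, 15 in endothelial cells, 86 in erythrocytes (Atp5if1 at -1.26) and 36 for macrophage-type against microglia-type cells. With no filter on low counts they were 17 and 6 for mild and moderate injury in macrophages/microglia, 7 in microglia-type cells, 9, 10, 2 and 6 for mild, moderate, severe and all injury in oligodendrocytes, 1 and 10 for moderate and severe injury in precursors, 2 for severe injury in endothelial cells and 3 in erythrocytes. With at least 4 markers they were 1 for severe injury in precursors and 0 in erythrocytes, with a lead of 0.3 they were 5 for mild injury in oligodendrocytes and 0 in erythrocytes, and with at least 50 cells 22 in endothelial cells. With only the compared pair of groups in the fit they were 0, 0 and 1 for mild, moderate and severe injury in macrophages/microglia, 6, 0 and 0 in oligodendrocytes, and 0 and 1 for mild and severe injury in precursors. With no library block they were 29 in dendritic cells, 40 in oligodendrocytes, 33 in precursors, 26 in fibroblasts, 9 in endothelial cells, 17 for precursors against oligodendrocytes and 7 for macrophage-type against microglia-type cells. The cause of these changes was not tested.

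With the replicate block the counts were 5, 0, 5 and 6 for mild, moderate, severe and all injury in macrophages/microglia, 0 in microglia-type and 5 in macrophage-type cells, 1 and 0 for mild and moderate injury in oligodendrocytes and 1 and 1 for mild and severe injury in precursors. The deviations of same-numbered libraries correlated from -0.18 to 0.24 between groups in macrophages/microglia. With a single difference per group, these values cannot decide whether same-numbered libraries were handled together.

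With 1 library left out, mild injury gave 0 to 13, moderate 0 to 4, severe 0 to 25 and all injury 2 to 13 calls in macrophages/microglia, all injury 0 to 8 in microglia-type and 0 to 5 in macrophage-type cells. Oligodendrocytes gave 0 to 7, 0 to 5, 0 to 2 and 0 to 4, and precursors 0 to 7, 0 to 2, 0 to 31 (31 without the second sham library) and 0 to 12 (12 without the same library) for mild, moderate, severe and all injury, and endothelial cells 0 to 4 for severe injury. Against macrophages/microglia, neutrophils gave 65 to 74, dendritic cells 53 to 62, T cells/NK cells 68 to 79, oligodendrocytes 58 to 67, precursors 57 to 70, fibroblasts 55 to 68, endothelial cells 8 (without the second severe library) to 37 and erythrocytes 0 to 2. Precursors against oligodendrocytes gave 35 to 43 and macrophage-type against microglia-type cells 43 to 63.

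Without ribosomal protein genes in the total, the members' share was 2.36% in B cells, 3.01% in T cells/NK cells, 2.98% in dendritic cells, 3.22% in endothelial cells, 3.37% in fibroblasts, 3.56% in macrophage-type cells, 3.54% in macrophages/microglia, 3.54% in microglia-type cells and 4.44% in precursors, and the Mt- share 5.71% in B cells and 5.90% in T cells/NK cells. With only the 250 bases before the start, YY1 letters stood in 2.47% of member promoters. Of single genes named, 1245 values kept their side of the threshold and direction, 189 lost their call and 1 reversed. Of the counts, levels and motif shares, 452 values stayed near the reported one and 158 moved. These totals pool injury comparisons with comparisons between types. With injury, only 2 calls held in every setting, Uqcrc1 and a gene model of Uqcrb in macrophages/microglia with all injured groups against sham. Precision is limited by 2 libraries per group and by small gates, such as 21 precursors in the first sham library.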

Other observations

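The ratio of Mt- UMIs to the UMIs of the nuclear members differed in its mean between cell types, and it varied within each. It was 0.87 ± 0.30 (SD, n = 7 libraries) in neutrophils, 1.23 ± 0.54 (n = 8) in oligodendrocyte precursors, 1.40 ± 0.53 (n = 8) in macrophages/microglia, 1.72 ± 0.72 (n = 8) in oligodendrocytes and 1.98 ± 0.57 (n = 7) in T cells/NK cells. Ranges over libraries overlapped between neighbours in this order. The ratio holds only for cells under the limit of 10% Mt- transcripts.

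Of the 5 complexes, complex II with 4 members had the smallest summed share in every type. In oligodendrocyte precursors complexes I and IV and the ATP synthase took 1.05%, 1.02% and 1.01% of UMIs and complex II 0.0808%. In oligodendrocytes complex I (0.908%) stood above the ATP synthase (0.709%), whereas in macrophages/microglia it was below (0.773% and 0.816%). These summed shares were not tested.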
